A study of Mus musculus with 13 samples.

Results

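Caveolae genes were examined in whole parametrial white adipose tissue (pmWAT) by bulk RNA-Seq. The 8 genes were *Cav1*, *Cav2*, *Cavin1*, *Cavin2*, *Cavin3*, *Ehd2*, *Pacsin2* and *Pacsin3*, taken as the rows of the count table whose Ensembl mouse gene identifier maps to one of these symbols, 8 of 33618 genes. All 8 were present and all passed the filter on low counts. The libraries were 7 labelled *Lmna* fl/fl and 6 labelled *Lmna* iADKO, each from a different female mouse. Both genotypes carried *Lmna* alleles with loxP sites around a part of the gene, and iADKO mice carried in addition a tamoxifen-inducible Cre driven by the *Adipoq* promoter (Adipoq-CreERT2). Every mouse, fl/fl controls included, received tamoxifen at 50 mg/kg on 5 consecutive days at 12 to 14 weeks of age, and tissue was collected 2 weeks posttamoxifen. The *Adipoq* promoter is active in adipocytes, so the endothelial, stromal and immune cells of the depot are not targeted.

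Caveolae are flask-shaped pits of the plasma membrane that are very abundant in adipocytes and are also found in endothelial and smooth muscle cells. Caveolins are inserted in the inner membrane leaflet, cavins form a coat around them, and the ATPase EHD2 and the membrane-curving pacsins sit at or near the neck. Caveolae buffer membrane tension and gather lipids and signaling receptors, and inherited loss of CAV1 or CAVIN1 causes generalized lipodystrophy in humans.

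In the libraries labelled iADKO, 5 of the 8 caveolae genes (*Cav1*, *Cav2*, *Cavin2*, *Ehd2* and *Pacsin3*) were lower with an adjusted p below the threshold of 0.05, and 0 were higher. Of all 16753 genes tested, 30.5% passed this threshold, 16.3% as lower and 14.1% as higher. The largest decreases were in *Cav1*, which fell by 31.2%, *Cav2*, which fell by 31.9%, and *Ehd2*, which fell by 30.3%. *Cavin1*, *Cavin3* and *Pacsin2* did not pass the threshold. Without iADKO replicate 2 the number of lower members was 3, since *Cavin2* (adjusted p = 0.0516) and *Pacsin3* (adjusted p = 0.0747) no longer passed. With the series of animal numbers in the library names as a block, no member passed (adjusted p = 0.0752 for *Cav1*, 0.0925 for *Cav2* and 0.0877 for *Ehd2*). In that fit 1202 of all genes tested were lower, in place of 2737. The median log2 fold change (iADKO over fl/fl) was -0.36 over the 8 genes and 0.03 over all genes tested. Adipocyte markers were lower in the same libraries by more than the caveolae genes, and relative to them the caveolae genes were higher, as given further on.

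Between 18854223 and 19776491 reads were counted on genes per library, and the caveolae genes held from 408 (*Pacsin3*) to 39641 (*Cav1*) counts in a library. Levels are given as CPM, counts scaled to a common library size after TMM normalization. *Lmna* itself, the gene targeted, averaged 84.7 CPM over the 7 fl/fl libraries (SD 7.51) and 96.7 CPM over the 6 iADKO libraries (SD 11.5). The edgeR quasi-likelihood test gave it an adjusted p = 0.0785, with log2 fold change 0.19. Counts cover the whole gene, so the floxed exons could not be read apart, and every direction below rests on the labels. The library labelled fl/fl replicate 5 stood apart from the other 6 fl/fl libraries. It had the lowest level of all 8 caveolae genes among fl/fl, the lowest summed adipocyte markers (19018 CPM) and the highest summed macrophage markers (5762 CPM). The library labelled iADKO replicate 6 had the highest summed adipocyte markers (18246 CPM) and the lowest summed macrophage markers (3457 CPM) of its genotype. The counts of caveolae genes past the threshold are given below with and without these libraries.

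The 8 genes lie on 6 chromosomes of GRCm39, and *Cav1* and *Cav2* are neighbors on the plus strand of chromosome 6, 16262 bp apart. The starts of transcription of the 4 caveolae genes with the largest decreases and, as a contrast, of *Pacsin2*, which was not lower, are shown to give the promoter context of genes that moved together. Each line is the 250 bases just before a RefSeq start, on the gene's strand from 5′ to 3′, with capitals at matches on either strand to 6 motifs. These were the GC box core GGGCGG, the CCAAT box spelled as its name, the TATA box spelled TATAAA, the TEAD site spelled GGAATG, the E-box spelled CACGTG and the cyclic AMP response element spelled TGACGTCA. The sequences are from the RefSeq promoter table of build GRCm38.p6, and their positions were found by exact match in GRCm39, with 1 match each.
Cav1 (chr6:17306084-17306333, plus strand): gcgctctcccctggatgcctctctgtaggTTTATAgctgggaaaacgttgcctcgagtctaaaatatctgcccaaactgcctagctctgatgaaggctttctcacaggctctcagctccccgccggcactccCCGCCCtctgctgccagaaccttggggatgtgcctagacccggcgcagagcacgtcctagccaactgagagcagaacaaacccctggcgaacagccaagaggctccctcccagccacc
Cav2 (chr6:17280934-17281183, plus strand): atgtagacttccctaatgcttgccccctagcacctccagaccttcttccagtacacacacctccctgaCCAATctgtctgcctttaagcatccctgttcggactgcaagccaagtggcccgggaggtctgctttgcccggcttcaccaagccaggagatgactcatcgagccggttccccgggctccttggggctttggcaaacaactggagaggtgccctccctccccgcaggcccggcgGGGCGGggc
Cavin2 (chr1:51328035-51328284, plus strand): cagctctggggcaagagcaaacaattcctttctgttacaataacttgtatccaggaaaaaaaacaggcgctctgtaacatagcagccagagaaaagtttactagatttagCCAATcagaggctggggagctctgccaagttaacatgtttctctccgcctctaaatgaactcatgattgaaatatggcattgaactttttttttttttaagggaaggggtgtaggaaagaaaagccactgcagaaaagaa
Ehd2 (chr7:15701461-15701710, minus strand): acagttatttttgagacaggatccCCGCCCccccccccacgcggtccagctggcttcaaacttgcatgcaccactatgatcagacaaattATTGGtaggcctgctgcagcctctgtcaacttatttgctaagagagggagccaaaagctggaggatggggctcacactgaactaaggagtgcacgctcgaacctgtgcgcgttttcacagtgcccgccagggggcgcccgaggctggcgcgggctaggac
Pacsin2 (chr15:83348808-83349057, minus strand): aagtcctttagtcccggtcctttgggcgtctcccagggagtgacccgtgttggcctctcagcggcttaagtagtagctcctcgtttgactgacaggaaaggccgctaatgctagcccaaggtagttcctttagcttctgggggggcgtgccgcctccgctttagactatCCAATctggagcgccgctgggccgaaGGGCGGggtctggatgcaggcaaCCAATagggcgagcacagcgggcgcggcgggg

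In the *Cav1* window the TATA box lay on the opposite strand at -221 and the GC box on the opposite strand at -118, counted from the start. In *Cav2*, the CCAAT box was at -182 and the GC box at -9. *Cavin2* held a single match, a CCAAT box at -140, and its window had the lowest GC content of the 5 shown, 40.4%. *Ehd2* held a GC box at -226 and a CCAAT box at -160, both on the opposite strand. *Pacsin2* held a GC box at -55 and CCAAT boxes at -81 and -32. None of the printed matches overlapped another, and none of the 5 windows held the TEAD site, the E-box or the cyclic AMP response element. The TEAD site was found in caveolae genes whose windows are not printed. *Cavin1* held it on the opposite strand at -247 or -249, the same letters counted from separate starts. *Pacsin3* held it on the opposite strand at -248 from the start nearest its annotated gene start, but not before its further start. Over all 32851 promoters of the table, 32.7% held the GC box, 33.9% the CCAAT box, 12.4% the TATA box, 12.6% the TEAD site, 6.02% the E-box and 1.55% the cyclic AMP response element in a window of this length. The start nearest the annotated gene start was printed for each gene, and the table held 1 further start of *Cav1* and 2 of *Pacsin2*, whose windows held none of the 6 motifs. In the printed windows no motif was shared by *Cav1*, *Cav2*, *Cavin2* and *Ehd2*. These matches describe letters only, and no binding was measured. Of the 8 genes, 7 matched the table, and *Cavin3* did not. The RefSeq starts shown lie 194 (*Cav1*), 158 (*Cav2*), 19 (*Cavin2*), 169 (*Ehd2*) and 12 (*Pacsin2*) bases inside the gene start of GENCODE vM39.

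Both caveolins fell. *Cav1* (ENSMUSG00000007655, chromosome 6, 17306140 to 17341451, plus strand) encodes caveolin-1, the main structural protein of caveolae outside muscle. It ranged from 1221 to 2278 CPM in fl/fl with a median of 1831, and from 1028 to 1392 CPM in iADKO with a median of 1264. Of the 7 fl/fl libraries 6 lay above every iADKO library, and only fl/fl replicate 5 fell among them. The fl/fl mean was 1813 ± 362 CPM (SD, n = 7) and the iADKO mean 1248 ± 130 CPM (SD, n = 6), and the log2 fold change was -0.54 (standard error 0.13, adjusted p = 0.00837).

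*Cav2* (ENSMUSG00000000058, chromosome 6, 17281026 to 17289877, plus strand) encodes caveolin-2, which forms hetero-oligomers with caveolin-1. It ranged from 274 to 510.2 CPM in fl/fl with a median of 426, and from 215 to 339 CPM in iADKO with a median of 284. The arrangement was that of *Cav1*, with 6 fl/fl libraries above all iADKO libraries and fl/fl replicate 5 among them. Its log2 fold change was -0.55 (standard error 0.13, adjusted p = 0.00775). *Cav2* kept a nearly fixed proportion to *Cav1*: its log2 ratio to *Cav1* in the same library was -2.14 ± 0.062 (SD, n = 7) in fl/fl and -2.16 ± 0.096 (SD, n = 6) in iADKO (exact two-sided permutation test, p = 0.547).

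Of the cavins, only *Cavin2* passed the threshold. *Cavin1* (ENSMUSG00000004044, chromosome 11, 100847559 to 100861713, minus strand), also called PTRF, encodes the coat protein required for caveolae to form. It ranged from 736 to 1120.1 CPM in fl/fl with a median of 965, and from 681 to 878 CPM in iADKO with a median of 803. The ranges overlapped, although 5 of 7 fl/fl libraries lay above every iADKO library. Its log2 fold change was -0.27 (standard error 0.10, adjusted p = 0.0517), just short of the threshold. Without fl/fl replicate 5, which had the lowest fl/fl level, so that leaving it out widens the difference, the log2 fold change was -0.32 (adjusted p = 0.00958). That was the lowest adjusted p with each library left out in turn. The highest was 0.118, and *Cavin1* did not pass in 10 of these 13 fits. An annotated antisense RNA, *Gm57383*, overlaps 898 bp of its exons and held 4783 counts over the 13 libraries against 218948 for *Cavin1*.

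*Cavin2* (ENSMUSG00000045954, chromosome 1, 51328266 to 51345710, plus strand), also called SDPR, encodes a cavin that helps shape the membrane. It ranged from 364 to 653 CPM in fl/fl with a median of 526, and from 342 to 437 CPM in iADKO with a median of 397. As for the caveolins, 6 fl/fl libraries lay above all iADKO libraries. Its log2 fold change was -0.40 (standard error 0.12, adjusted p = 0.0208).

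*Cavin3* (ENSMUSG00000037060, chromosome 7, 105128391 to 105131507, minus strand), also called PRKCDBP, encodes a cavin linked to signaling from caveolae. It ranged from 59.2 to 160.2 CPM in fl/fl with a median of 100.1, and from 88.7 to 118 CPM in iADKO with a median of 103, so the iADKO libraries lay entirely inside the fl/fl range. The log2 fold change of -0.10 had a standard error of 0.20 (adjusted p = 0.738), and its sign turned when counts were scaled by library size alone (0.12). An overlapping transcript of unknown coding status on the other strand, *Gm45667*, held 1366 counts against 26644 for *Cavin3*.

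Among the neck proteins, *Ehd2* and *Pacsin3* fell and *Pacsin2* did not. *Ehd2* (ENSMUSG00000074364, chromosome 7, 15680874 to 15701629, minus strand) encodes the dynamin-related ATPase that holds caveolae at the cell surface. It ranged from 688 to 1293 CPM in fl/fl with a median of 1048, and from 549 to 811 CPM in iADKO with a median of 735. Only fl/fl replicate 5 overlapped the iADKO libraries. Its log2 fold change was -0.52 (standard error 0.14, adjusted p = 0.0119).

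*Pacsin3* (ENSMUSG00000027257, chromosome 2, 91086095 to 91095033, plus strand), an F-BAR protein best known from muscle, was the least abundant member. It ranged from 20.6 to 34.0 CPM in fl/fl with a median of 27.0, and from 19.0 to 27.0 CPM in iADKO with a median of 21.3. The groups overlapped more than for the caveolins, with 4 of 7 fl/fl libraries above every iADKO library. Its log2 fold change was -0.31 (standard error 0.10, adjusted p = 0.0328), and the call was lost on leaving out any of 7 of the 13 libraries in turn.

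*Pacsin2* (ENSMUSG00000016664, chromosome 15, 83258424 to 83348819, minus strand), also known as syndapin II, is the widely expressed F-BAR protein of the caveolar neck and of endocytosis. It ranged from 87.5 to 108 CPM in fl/fl with a median of 91.2, and from 96.4 to 114 CPM in iADKO with a median of 106. The overlap ran the other way from that of the caveolins, since 4 of 7 fl/fl libraries lay below every iADKO library and 3 of 6 iADKO libraries above every fl/fl library. Its log2 fold change was 0.16 (standard error 0.059, adjusted p = 0.0551).

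**Figure D1:**
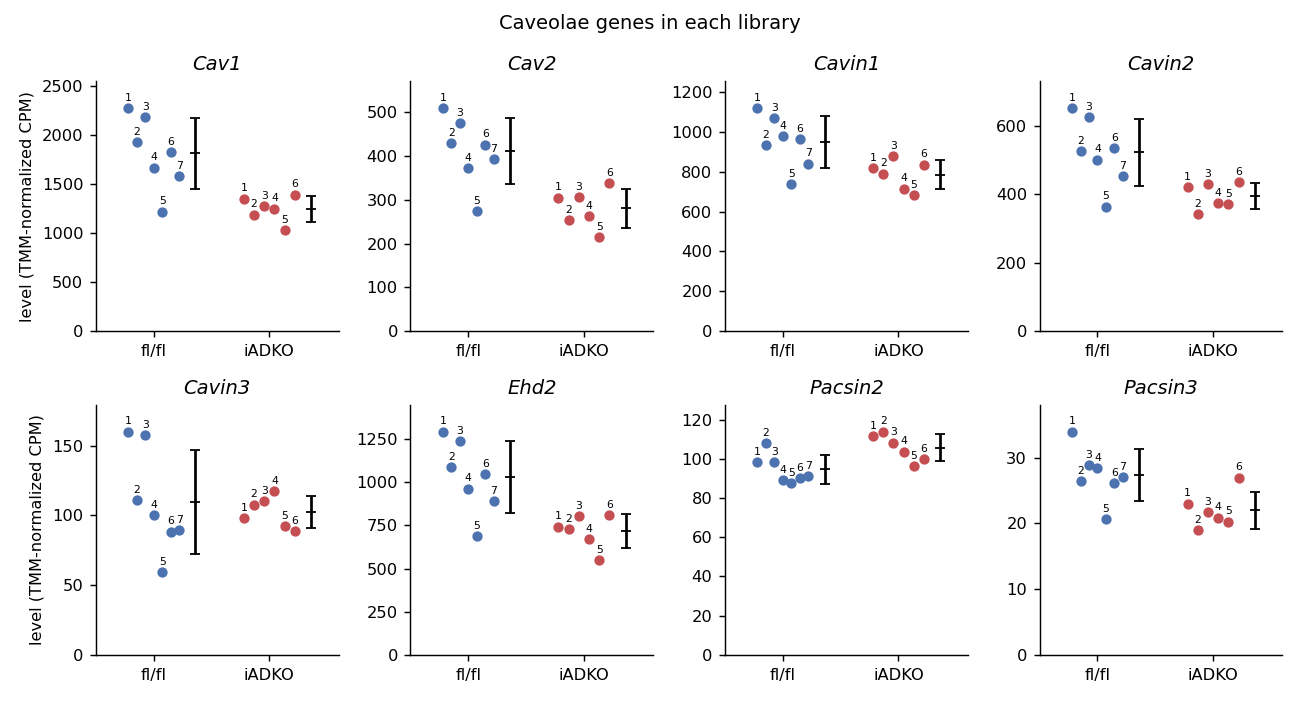
Each panel plots 1 caveolae gene, with the library's TMM-normalized level in CPM on the y axis, a dot and replicate number per library (7 fl/fl in blue, 6 iADKO in red), and the mean with SD as a bar beside each group. For Cav1, Cav2, Cavin2 and Ehd2 every fl/fl dot but replicate 5 lies above all iADKO dots, while the Cavin3 dots of iADKO lie within the fl/fl range and Pacsin2 leans the other way.

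The genotypes overlapped in all 8 caveolae genes, so 0 of 8 separated them completely, where 6.64% of all genes tested did and 3.93% did with iADKO lower. With fl/fl replicate 5 set aside, a look chosen after the data were seen, 4 of the 8 (*Cav1*, *Cav2*, *Cavin2* and *Ehd2*) did, all with iADKO lower, as did 10.1% of all genes tested. The lowest remaining fl/fl value of *Cav1* was then 1586 CPM against a highest iADKO value of 1392 CPM. Without fl/fl replicate 5 and iADKO replicate 6 together, 6 members were lower, *Cavin1* included (log2 fold change -0.37, adjusted p = 0.00416), and that of *Cav1* was -0.67. Both libraries were singled out because their marker sums lie nearest the other genotype, so a wider difference without them carries no separate weight. In that setting 3910 of 16769 genes (23.3%) were lower, more than in all 13 libraries.

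The animal numbers in the library names fall into series, of which 2 hold both genotypes. Within numbers 747 to 765 (3 fl/fl and 2 iADKO libraries) the log2 fold change was -0.74 for *Cav1*, -0.76 for *Cav2*, -0.66 for *Cavin2* and -0.71 for *Ehd2*. Within numbers 722 to 727 (2 libraries of each genotype, including fl/fl replicate 5 and iADKO replicate 6) the same genes were at -0.11, -0.10, -0.08 and -0.14. *Cavin1* was at -0.37 and -0.14, *Pacsin3* at -0.50 and -0.03, and *Cavin3* at -0.46 and 0.41, while *Pacsin2* was at 0.15 and 0.20. The 5 genes that fell were thus nearer to 0 in the 722 to 727 series, but a test of the difference between the series gave adjusted p from 0.382 to 0.831 over the 8 genes. With the series as a block the log2 fold change of *Cav1* was -0.46, and 1986 of all genes passed in place of 5104. Numbers 706 and 707 are fl/fl only, and 974 and 975 are iADKO only. With the block these libraries do not enter the genotype comparison, which then rests on fewer mice. What the animal numbers stand for is not given in the sources used here.

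**Figure D2:**
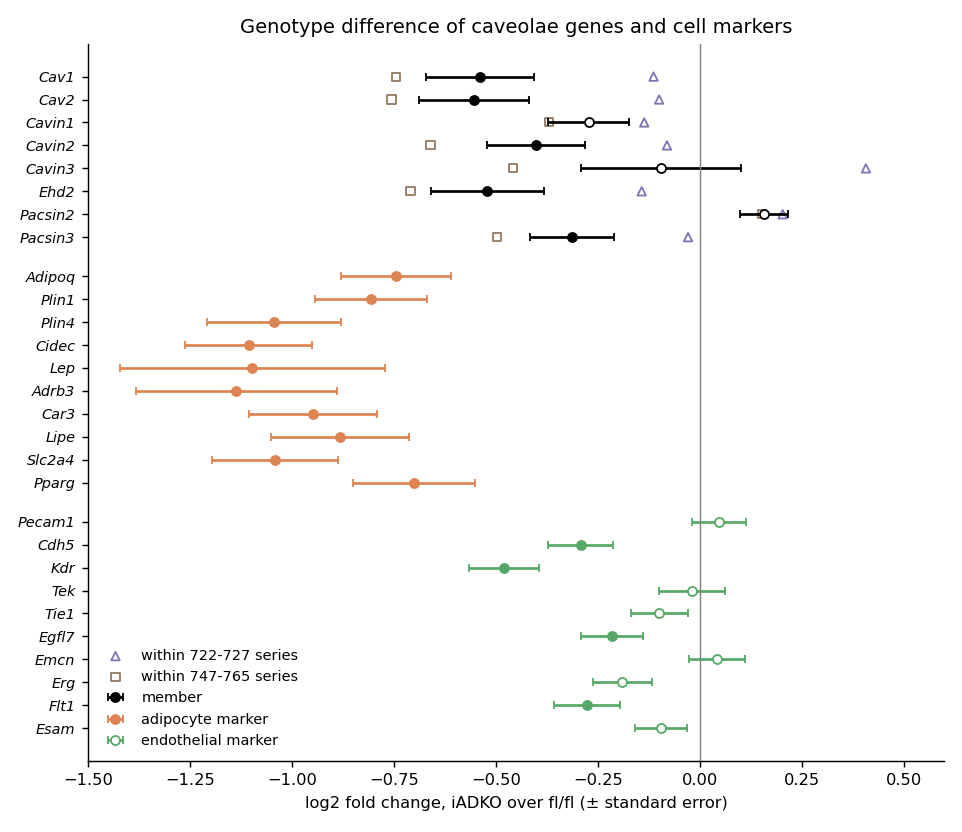
The x axis gives the log2 fold change of iADKO over fl/fl with its standard error for the 8 caveolae genes (black), 10 adipocyte markers (orange) and 10 endothelial markers (green), filled where the adjusted p was under 0.05, and open triangles and squares give each caveolae gene within the 722-727 and 747-765 animal numbers. The caveolae genes that fell lie between -0.31 and -0.55, to the right of every adipocyte marker, and the 722-727 values lie nearer to 0 for all of them.

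Per kilobase of exon, the 8 genes kept a steep and stable order of levels. In fl/fl, *Cav1* was at 363 ± 72.6 CPM per kb, *Cavin1* at 178 ± 24.5, *Ehd2* at 162 ± 32.6, *Cav2* at 95.8 ± 17.8, *Cavin2* at 75.9 ± 14.3 and *Cavin3* at 35.7 ± 12.2 (SD, n = 7). The pacsins were far below, *Pacsin2* at 9.97 ± 0.768 and *Pacsin3* at 3.90 ± 0.566 CPM per kb. In iADKO, *Cav1* ranged from 206 to 279 CPM per kb, with *Cavin1* at 148 ± 14.0, *Ehd2* at 113 ± 15.4 and *Cav2* at 65.3 ± 10.4 (SD, n = 6). The order was the same in 12 of the 13 libraries, and in 1 library *Cavin2* stood above *Cav2*. Neighbors in the order whose ranges overlapped in fl/fl were *Cavin1* (138 to 210.3 CPM per kb) and *Ehd2* (109 to 204), *Ehd2* and *Cav2* (63.8 to 119), and *Cav2* and *Cavin2* (52.9 to 94.8). The order was also kept with the length of the longest transcript in place of the exon union.

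Because a ratio of a pair of genes in the same library does not depend on scaling, each member was set against *Cav1*. The *Ehd2* to *Cav1* log2 ratio was almost constant in fl/fl, from -0.83 to -0.79 (SD 0.014, n = 7), and more spread in iADKO, from -0.91 to -0.67 (SD 0.10, n = 6), and the means were 0.01 apart (exact two-sided permutation test, p = 0.734). The cavins and pacsins were higher relative to *Cav1* in iADKO. *Cav1* itself had a log2 fold change of -0.54, so any gene that fell less, or not at all, rises against it. What share of all genes did so was not computed. The log2 ratio rose by 0.25 for *Cavin1* (exact permutation p = 0.00641), by 0.13 for *Cavin2* (exact permutation p = 0.00932) and by 0.49 for *Cavin3* (exact permutation p = 0.00466). *Pacsin2* had the largest shift among the 7 ratios, 0.68, from -4.24 ± 0.25 (SD, n = 7) to -3.56 ± 0.15 (SD, n = 6), with 5 of 6 iADKO libraries above every fl/fl library (exact permutation p = 0.00175). For *Pacsin3* the shift was 0.21 (exact permutation p = 0.0286), and it did not pass when any of 6 of the 13 libraries was left out (exact permutation p up to 0.0619). These p-values are not adjusted over the 7 ratios, all share the *Cav1* values, and the smallest that 1716 splits can give is 0.000583. Within animal numbers 722 to 727 and 747 to 765 the shift of the *Cavin1* ratio was -0.02 and 0.38, that of *Cavin2* 0.03 and 0.08, that of *Cavin3* 0.52 and 0.29, that of *Pacsin2* 0.32 and 0.90, and that of *Pacsin3* 0.08 and 0.25. For *Ehd2*, 3 iADKO libraries lay above every fl/fl library and 3 below, so the group means were close although no iADKO library fell in the narrow fl/fl range.

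**Figure D3:**
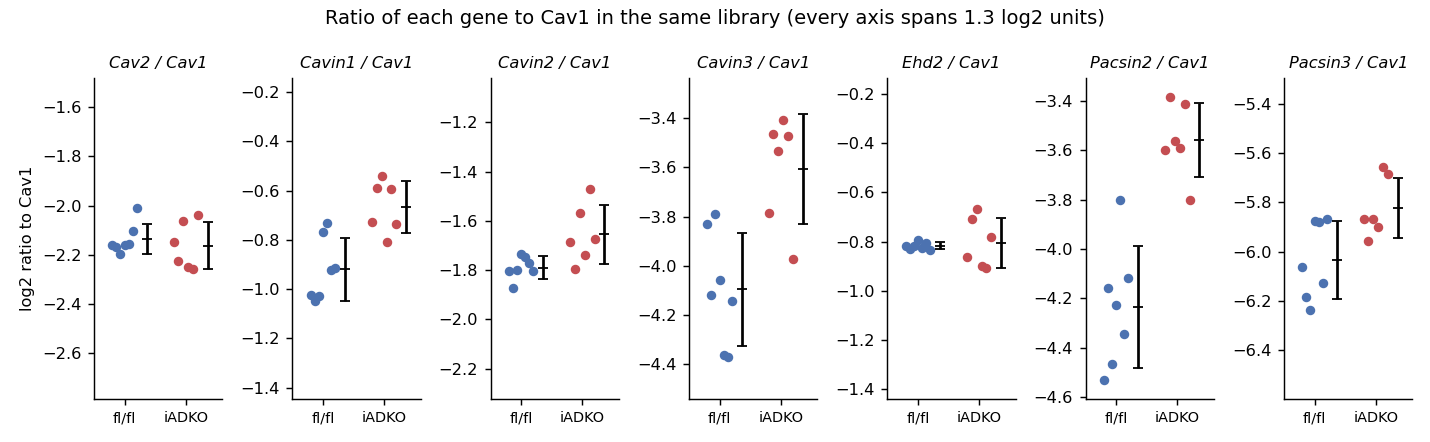
The y axis of each panel is the log2 ratio of a caveolae gene to Cav1 in the same library, on axes of equal span, with a dot per library and the mean with SD beside each group (7 fl/fl in blue, 6 iADKO in red). The Ehd2 ratio of the fl/fl libraries lies in a band from -0.83 to -0.79, and the Pacsin2 ratio moves up by 0.68 in iADKO.

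Within a genotype *Cav1*, *Cav2*, *Cavin1*, *Cavin2* and *Ehd2* varied together from mouse to mouse. After each genotype's mean was subtracted from log2 CPM, the 10 pairs among *Cav1*, *Cav2*, *Cavin1*, *Cavin2* and *Ehd2* had Pearson's r of 0.89 to 0.97 and Spearman's rho of 0.86 to 0.96 over 13 libraries. Leaving out, for each pair, the 2 libraries farthest from the median of its first-listed gene left r at 0.73 to 0.93. The libraries left out thus differed between pairs. Within fl/fl alone r was 0.91 to 0.999, and within iADKO 0.59 to 0.96. *Cavin3* followed the others in fl/fl (r of 0.64 to 0.96) but not in iADKO (-0.58 to 0.50). Without the 2 farthest libraries, chosen for each pair in the same way, its r ranged from -0.07 to 0.56 over both genotypes. *Pacsin2* was loosely tied to the rest, with r of 0.15 to 0.60 over the 13 libraries and of -0.30 to 0.52 within iADKO. These correlations are descriptions over libraries that share a normalization and a tissue makeup, and they carry no test.

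**Figure D4:**
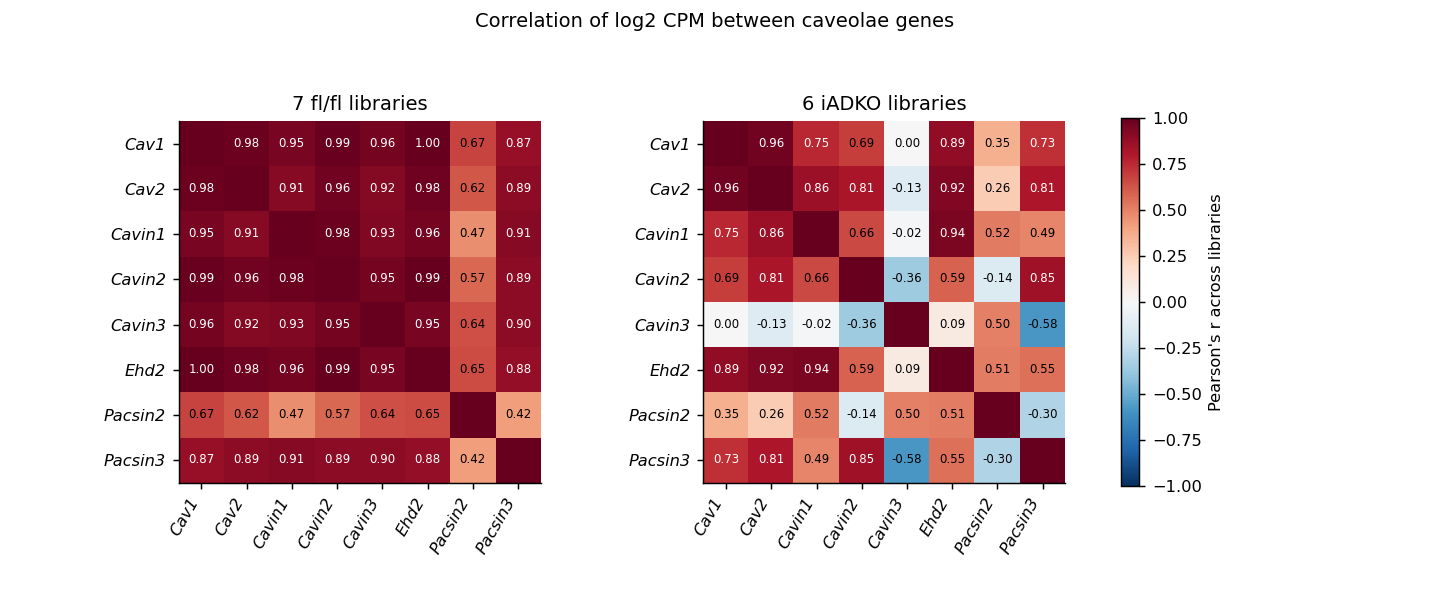
Each square gives Pearson's r between the log2 CPM of a pair of caveolae genes, over 7 fl/fl libraries (left) and 6 iADKO libraries (right), from -1 (blue) to 1 (red). The block of Cav1, Cav2, Cavin1, Cavin2 and Ehd2 is dark red in fl/fl, and the Cavin3 row turns from 0.64 to 0.96 in fl/fl to -0.58 to 0.50 in iADKO.

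Over the same libraries and by the same measure, the genes most like *Cav1* among 13846 genes were *Aoc3* (r = 0.97), an amine oxidase abundant on adipocytes, *Mmd* (0.97), *Cyb5r3* (0.96), *Nudt4* (0.96) and *Rtn3* (0.95). Those most like *Cavin1* were *Zfp366* (0.99), *Tcaf1* (0.96), *Mmd* (0.95), *Itga6* (0.94), an integrin subunit, and *Capn2* (0.94), a calpain.

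Markers of adipocytes and macrophages moved with genotype as well, and those of endothelial cells less so, beside 16.3% of all genes tested that were lower and 14.1% higher. All 10 adipocyte markers were lower in iADKO, with a median log2 fold change of -0.99 and summed levels of 19018 to 32202 CPM in fl/fl and 10641 to 18246 CPM in iADKO. Of 10 endothelial markers 4 were lower and 0 higher (median -0.14), with summed levels of 1044 to 1378 and 1050.3 to 1193 CPM. Of 9 macrophage markers 7 were higher (median 0.69), from 2103 to 5762 and 3457 to 5965 CPM. None of these markers was at 0 in a library. In whole tissue, fewer cells of a type and less RNA per cell cannot be told apart.

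The remaining marker lists, to be read beside the same shares of all genes (16.3% lower, 14.1% higher), moved less uniformly. Of 8 mural and smooth muscle markers 1 was lower and 0 higher, of 7 fibroblast and progenitor markers and of 6 mesothelial markers none passed in either direction, and of 8 lymphocyte markers 4 were higher. Of 8 skeletal muscle markers none passed, their sums were 19.8 to 412 CPM in fl/fl against 13.5 to 227 CPM in iADKO, and *Myh4*, *Tnnc2* and *Pvalb* were at 0 in at least 1 library. Of 4 epithelial markers 2 were higher, with sums of 11.1 to 38.6 and 21.3 to 171 CPM. Within genotypes, the mean log2 CPM of the adipocyte markers correlated with *Cav1* at r = 0.89, *Cav2* at 0.94, *Cavin1* at 0.83, *Cavin2* at 0.88, *Ehd2* at 0.86 and *Pacsin3* at 0.97 over 13 libraries, with *Cavin3* at 0.60 and with *Pacsin2* at 0.26. With the macrophage markers these values were negative, from -0.84 for *Cavin2* to -0.17 for *Pacsin2*. Fits with marker scores as covariates are given further on, but how much of the result these markers account for was not tested.

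Relative to the adipocyte markers, all 8 caveolae genes were higher in iADKO. Set against the mean of the 10 adipocyte markers in each library, a comparison chosen after the data were seen, *Cav1* was at 0.55 ± 0.096 log2 units (SD, n = 7) in fl/fl and 0.98 ± 0.15 (SD, n = 6) in iADKO, higher by 0.43. The differences were 0.40 for *Cav2*, 0.69 for *Cavin1*, 0.57 for *Cavin2*, 0.92 for *Cavin3*, 0.45 for *Ehd2*, 1.11 for *Pacsin2* and 0.64 for *Pacsin3*. For all but *Cavin3* the 6 iADKO libraries all lay above every fl/fl library (exact two-sided permutation test, p = 0.000583, the smallest possible), and for *Cavin3* 5 of 6 did (exact permutation p = 0.00175). All 10 markers fell in these libraries, so a gene with no change of its own also rises against their mean. The median log2 fold change of all genes tested was 0.03. What share of all genes rose in this way was not computed. With each library left out in turn the differences were 0.38 to 1.21, with exact permutation p of 0.00126 to 0.00433. They were positive within both animal-number series, from 0.36 to 0.91 in 722 to 727 and from 0.43 to 1.33 in 747 to 765. Against *Adipoq* alone, which encodes adiponectin and fell less than most of the other adipocyte markers, the differences were smaller: 0.24 for *Cav1* (exact permutation p = 0.0635), 0.21 for *Cav2* (exact permutation p = 0.0530) and 0.25 for *Ehd2* (exact permutation p = 0.0682) did not pass, and the other 5 did.

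Against the mean of the 10 endothelial markers, the 5 genes that fell in the whole tissue were also lower. These 5 were called lower in the same libraries, and the endothelial markers moved little, with a median log2 fold change of -0.14. The direction of these 5 against that mean was thus nearly fixed beforehand, and their p-values here carry no separate weight. The difference was -0.36 for *Cav1* (exact permutation p = 0.00816), -0.39 for *Cav2* (exact permutation p = 0.00816), -0.35 for *Ehd2* (exact permutation p = 0.0140) and -0.23 for *Cavin2* (exact permutation p = 0.0326). *Pacsin3* was at -0.15 (exact permutation p = 0.0396). *Cavin1* at -0.11 (exact permutation p = 0.131) and *Cavin3* at 0.13 (exact permutation p = 0.520) did not pass. *Pacsin2* was higher by 0.31 (exact permutation p = 0.00233). The exact permutation p-values against the marker means and *Adipoq* are not adjusted over genes or references. Those against the same reference share its values. Within animal numbers 722 to 727 *Cav1* was at -0.05 against the endothelial markers, *Cav2* at -0.04, *Cavin2* at -0.02, *Ehd2* at -0.08 and *Pacsin3* at 0.03. The 5 genes that fell in the whole tissue thus changed by less than the adipocyte marker mean and by more than the endothelial marker mean, with the exceptions given for *Adipoq* alone and for animal numbers 722 to 727.

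None of the other genes of the caveolin, cavin, pacsin and EHD families passed the threshold as lower. Of 6, 5 were tested, and 2 were higher, where 14.1% of all genes tested were. *Ehd4*, an endosomal relative of *Ehd2*, rose from 141 ± 13.2 CPM (SD, n = 7) to 193 ± 14.2 CPM (SD, n = 6) with no overlap (log2 fold change 0.46, standard error 0.068, adjusted p = 0.000547). *Pacsin1*, the neuronal pacsin, was higher at a very low level, 0.553 ± 0.268 CPM in fl/fl and 1.13 ± 0.335 CPM in iADKO (log2 fold change 1.02, adjusted p = 0.0238). *Ehd1* (-0.19, adjusted p = 0.135), *Ehd3* (-0.09, adjusted p = 0.634) and the muscle cavin *Cavin4* (0.40, adjusted p = 0.158) did not pass, and the muscle caveolin *Cav3*, with 0 to 8 counts per library, was not tested. *Ehd2* and *Ehd4* thus moved in opposite directions in the same libraries.

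Of 7 partners in scission, rafts and attachment to actin, 1 was lower and 4 were higher, with a median log2 fold change of 0.23. The shares over all genes tested were 16.3% lower and 14.1% higher. *Flna*, filamin A, which ties caveolae to actin, rose from 926 ± 104 CPM to 1315 ± 126 CPM with no overlap (log2 fold change 0.51, adjusted p = 0.00142). *Ror1*, a receptor that binds caveolar proteins, rose by 0.43 (adjusted p = 0.0325), and *Flot1*, which encodes the raft protein flotillin-1, fell by 0.35 (adjusted p = 0.00399).

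Of 11 receptors, transporters and enzymes described in caveolae, 5 were lower and 0 higher, with a median of -0.26. Over all genes tested 16.3% were lower and 14.1% higher. *Insr*, the insulin receptor, fell from 247 ± 14.0 CPM to 164 ± 18.1 CPM with no overlap (log2 fold change -0.59, adjusted p = 0.000168). *Slc2a4*, the insulin-responsive glucose transporter GLUT4 and also one of the adipocyte markers, fell by 1.04 (adjusted p = 0.000556). The fatty acid translocase *Cd36* was among those that did not pass.

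Of 15 genes of inherited lipodystrophy, 9 were lower and 1 was higher, with a median of -0.61, beside 16.3% lower and 14.1% higher over all genes tested. The largest changes were in *Agpat2*, an acyltransferase of triglyceride synthesis (-1.31, adjusted p = 0.000311), *Cidec*, a lipid droplet protein (-1.11, adjusted p = 0.000394), and *Lipe*, hormone-sensitive lipase (-0.88, adjusted p = 0.00218). *Cav1* at -0.54 fell less than these, and *Cavin1* at -0.27 did not pass. *Cidec*, *Lipe*, *Plin1* and *Pparg* are in both the lipodystrophy list and the adipocyte marker list.

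The calls for the caveolae genes were also recomputed under other settings. With the adipocyte, endothelial or macrophage marker score as a covariate no member passed, where 5, 982 and 293 of all 16753 genes did. With the adipocyte score the log2 fold changes of all 8 were positive, from 0.25 (*Pacsin2*) to 0.85 (*Cavin3*), none past the threshold. That score was 9.70 to 10.62 log2 CPM in fl/fl and 9.05 to 9.74 in iADKO. It nearly separated the genotypes, so that fit could hardly tell genotype from score. The macrophage score was also tied to genotype, at 7.54 to 8.60 (mean 7.84) in fl/fl and 8.04 to 8.83 (mean 8.53) in iADKO. That fit too could only partly tell genotype from score. With counts scaled by library size alone the median of all genes rose by 0.20, the share of lower genes among all calls was 14.7% against 53.6%, and *Cav1*, *Cav2* and *Ehd2* were still lower while *Pacsin2* was higher (0.36, adjusted p = 0.000415). *Cavin2* (adjusted p = 0.116) and *Pacsin3* (adjusted p = 0.297) did not pass under that scaling. *Cav1*, *Cav2* and *Ehd2* passed with each of the 13 libraries left out in turn.

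**Figure D5:**
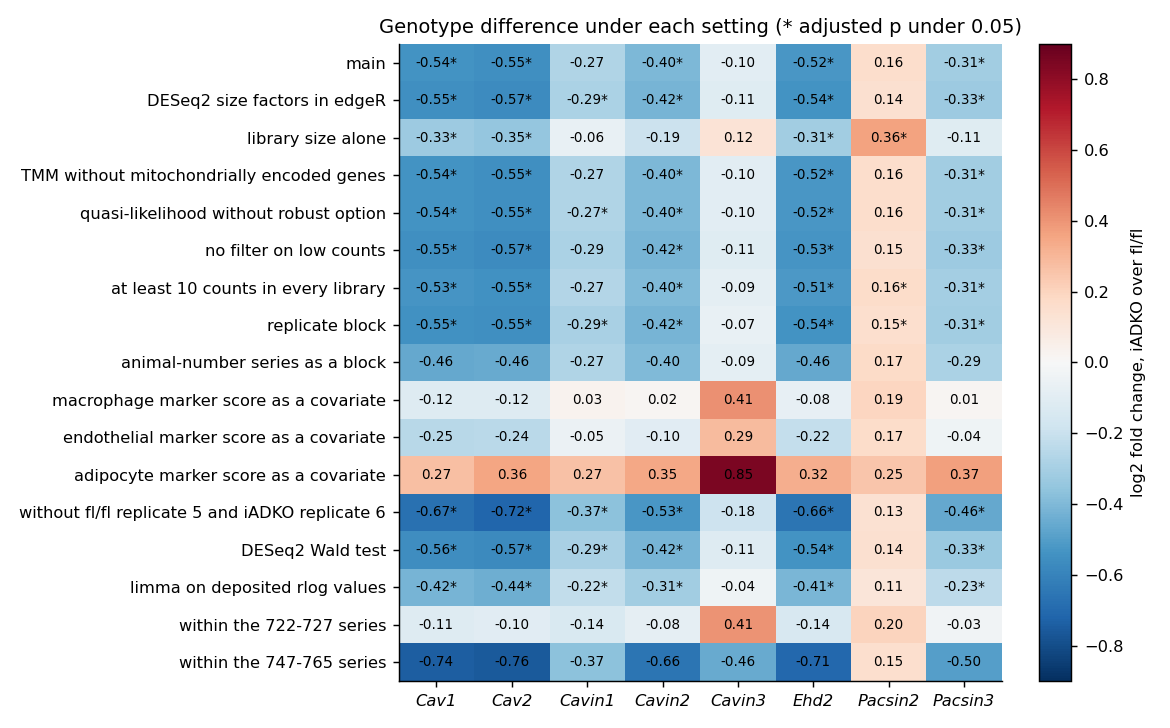
Rows are settings, columns the 8 caveolae genes, and each cell gives the log2 fold change of iADKO over fl/fl, from blue (lower) to red (higher), with an asterisk where the adjusted p was under 0.05. Values within animal-number series, in the last rows, have no test. Cav1, Cav2 and Ehd2 are blue in every row but the one with the adipocyte marker score as a covariate, where all 8 genes are positive.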

How the data were processed

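Whole pmWAT of 7 fl/fl and 6 iADKO mice was profiled, and genotype and replicate number were taken from the labels. The authors deposited raw counts for 33618 Ensembl genes and log2 values made from them with the regularized log of DESeq2. Per the labels and the paper, strand-specific mRNA libraries were made, and the submitters' processing notes name FastQC 0.12.1, STAR 2.7.11a, DESeq2 and mm39. The counting tool and annotation are not given in the sources used here. Symbols and positions were read from GENCODE vM39, which held 33184 of the identifiers.

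In R 4.3.3, genes were filtered with filterByExpr of edgeR 4.0.16 and normalized by TMM. Genotypes were compared over 16753 genes with the robust quasi-likelihood test, with Benjamini-Hochberg adjustment and a threshold of 0.05. Log2 CPM used a prior count of 2. Single ratios were compared by two-sided exact permutation tests over all splits, written in Python 3.11.15, and Spearman's rho was computed with scipy 1.17.1. Alternatives included DESeq2 1.42.0 and limma 3.58.1 on the deposited log2 values, other normalizations and filters, the replicate number or the animal-number series as a block, and marker scores as covariates. The code was tested on simulated data. The chi-square per degree of freedom between libraries of a genotype was 8.16 to 88.8, so none was a copy of another.

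The caveolae genes and all lists were chosen with earlier results of these data known. Named were the 8 genes, *Lmna*, each tested relative, the 3 largest changes past the threshold in each other list, and the 5 genes most like *Cav1* and *Cavin1* among those averaging 1 or more in log2 CPM. Marker lists were adipocyte, endothelial, mural and smooth muscle, fibroblast and progenitor, macrophage, lymphocyte, mesothelial, skeletal muscle and epithelial. Comparisons with marker means, the interaction of genotype and animal-number series, and the look without fl/fl replicate 5 were chosen after the data were seen. Mice are separate animals, so the SDs are between animals and contain the counting error. *Adipoq*, *Cd36*, *Cidec*, *Plin1*, *Pparg*, *Gm57383* and *Gm45667* were named after their values were seen. Some single-gene values that this rule would name are left out.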

Additional observations from a re-analysis of the deposited data

How the results depend on the processing

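Of the 8 caveolae genes 5 were lower in the main analysis, and 3 to 6 were with each library left out in turn (3998 to 6604 of all genes past the threshold). The lowest number, 3, came without iADKO replicate 2 (adjusted p = 0.0516 for *Cavin2* and 0.0747 for *Pacsin3*). Library size alone gave 3 lower members and 8673 genes in all, the animal-number series as a block 0 and 1986, and the macrophage, endothelial and adipocyte marker scores as covariates 0 members each and 293, 982 and 5 genes. With the adipocyte score the log2 fold changes reversed to 0.27 for *Cav1*, 0.36 for *Cav2*, 0.27 for *Cavin1*, 0.35 for *Cavin2*, 0.85 for *Cavin3*, 0.32 for *Ehd2* and 0.37 for *Pacsin3*. With the macrophage score they reversed to 0.028 for *Cavin1*, 0.016 for *Cavin2*, 0.41 for *Cavin3* and 0.014 for *Pacsin3*. *Cavin3* also reversed with the endothelial score (0.29) and with library size alone (0.12), and it ranged from -0.20 to 0.020 with each library left out, above 0 without fl/fl replicate 1 or 3. The *Ehd2* to *Cav1* ratio difference was -0.014 to 0.033 with each library left out, below 0 without iADKO replicate 2 or 3, and that of *Cavin1* was -0.023 within animal numbers 722 to 727. The cause of these changes was not tested. The *Pacsin3* to *Cav1* ratio lost its call in 6 of the 13 libraries left out.

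The labels number the mice within each genotype, and 3 of the 6 same-numbered pairs had residual correlations over 0.1 (mean 0.107, against -0.02 for other pairs), with 2 pairs whose libraries both correlated best with each other, so the numbers were not taken to pair the mice. With the replicate block, and fl/fl replicate 7 left out, 6 members were lower, *Cavin1* among them (-0.29, adjusted p = 0.0215), *Pacsin2* was higher (0.15, adjusted p = 0.0350), and 4833 genes passed in all. DESeq2's Wald test gave 3155 lower and 2400 higher genes, with *Cavin1* past the threshold (adjusted p = 0.0195). The lowest count of any member in a library was 408.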

Other observations

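The difference between the animal-number series was tested by an interaction of genotype and series over the 9 libraries of both, chosen after the data were seen. The log2 fold change of *Cav1* within numbers 747 to 765 minus that within 722 to 727 was -0.62 (standard error 0.26, unadjusted p = 0.0432, adjusted p = 0.384, edgeR quasi-likelihood test), and that of *Cav2* was -0.65 (unadjusted p = 0.0363, adjusted p = 0.382). For the other 6 caveolae genes the adjusted p was 0.384 to 0.831. By this edgeR test 0 of the 16753 genes passed the threshold and 2164 (12.9%) had an unadjusted p under 0.05. No single caveolae gene was thus shown to differ between the series.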
